A study of Mus musculus with 6 samples.

Results

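Transcripts of 10 genes of the ATF4 stress response were followed in embryonic neural stem cells that lacked or kept Pml. Pml encodes the promyelocytic leukemia protein, the scaffold of PML nuclear bodies. The genes are the transcription factors Atf4, Atf5, Atf3, Ddit3 and Cebpb and the targets Trib3, Chac1, Asns, Ddit4 and Sesn2. They were taken by symbol from a table of 24421 gene symbols; all 10 were present, and all 10 passed the low-count filter that left 11317 genes for testing. The groups are 3 libraries from Pml knockout cells (Pml-/-) and 3 from WT cells. All came from primary cells of mouse brain at E13.5, grown as neurospheres with epidermal growth factor and fibroblast growth factor 2 and lysed on day 4 after dissociation. No further treatment is named for either group, and whether the cultures were free of stress was not tested. All 6 carry the same batch date. The labels give neither the mouse strain nor the deleted part of Pml, and do not say whether the numbered replicates were separate embryos or cultures. Every p below is thus measured against the spread over these 6 samples, part of which may be technical.

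ATF4 is the main effector of the integrated stress response. Kinases that sense amino acid shortage, misfolded protein in the endoplasmic reticulum, haem shortage or double-stranded RNA phosphorylate the translation factor eIF2; most protein synthesis then slows while the Atf4 messenger RNA is translated more. Mitochondrial damage reaches the same pathway through the protease OMA1 and its substrate DELE1. ATF4 then switches on genes of amino acid supply and, where stress lasts, the factor CHOP (Ddit3) and genes that limit growth. Because ATF4 is controlled largely at translation, the level of its messenger RNA alone does not report its activity.

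ATF4 binds DNA as a heterodimer with C/EBP proteins at a composite element with the letters TGATGNAA. These letters were searched on both strands of the promoter windows in RefSeq (GRCm38.p6), each 300 bases long, with 250 bases before and 50 after an annotated start. All 10 genes had a window, 11 windows in all, and 4 genes held a match: Atf3, Chac1, Trib3 and Asns. Of all 32851 windows, 3.97% held one. The 4 matches are shown because they mark which of the genes carry these letters close to the start; capitals mark the match, which reads on the opposite strand in all but Asns. Atf3, Chac1 and Asns are given as the 250 bases before the start and Trib3 as the 30 bases around its match, which lies just after its RefSeq start.
Atf3, chr1:191183334-191183583, minus strand: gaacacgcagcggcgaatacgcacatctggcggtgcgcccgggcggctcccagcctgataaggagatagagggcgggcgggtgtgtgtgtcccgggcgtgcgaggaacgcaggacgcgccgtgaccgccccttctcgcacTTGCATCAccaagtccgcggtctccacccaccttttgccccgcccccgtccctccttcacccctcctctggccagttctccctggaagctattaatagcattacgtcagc
Chac1, chr2:119350992-119351241, plus strand: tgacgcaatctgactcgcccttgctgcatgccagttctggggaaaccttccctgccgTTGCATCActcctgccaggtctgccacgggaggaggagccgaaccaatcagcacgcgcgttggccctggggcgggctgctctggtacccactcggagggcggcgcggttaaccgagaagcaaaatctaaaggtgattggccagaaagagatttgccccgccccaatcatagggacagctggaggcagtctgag
Asns, chr6:7693210-7693459, minus strand: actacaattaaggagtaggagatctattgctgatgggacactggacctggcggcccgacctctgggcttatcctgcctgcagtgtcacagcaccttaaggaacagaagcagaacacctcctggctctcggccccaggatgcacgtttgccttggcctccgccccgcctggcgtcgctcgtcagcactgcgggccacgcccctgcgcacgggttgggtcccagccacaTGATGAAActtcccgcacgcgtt
Trib3, chr2:152344028-152344057, minus strand: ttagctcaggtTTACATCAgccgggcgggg
The first base of the match lies at -110 in Atf3, -193 in Chac1, -23 in Asns and 15 in Trib3, counted from the RefSeq start. These starts differ from the gene ends in the GENCODE coordinates given with each gene below; by those coordinates the matches of Atf3 and Asns fall inside the gene and those of Chac1 and Trib3 before it. The endoplasmic reticulum stress element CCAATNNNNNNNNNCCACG and the cyclic AMP element TGACGTCA, held by 0.119% and 1.79% of all windows, matched 0 of the 11 windows. A match is a description of the letters and not evidence of binding.

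Libraries held 4980638 to 5917505 counts in the knockout and 1775152 to 4413318 in WT, with the fewest in WT replicate 2. WT replicates 1 and 2 stood apart: Rn45s, the row of 45S pre-ribosomal RNA, took 41.9% and 39.8% of their counts, against 14.6% to 19.6% in the other 4 libraries. The 11 hepatocyte markers summed to 57.4 to 85.9 CPM (counts scaled to library size) in the knockout libraries, against 375, 620 and 113 CPM in WT replicates 1, 2 and 3. The 7 microglia markers summed to 0 to 1.81 CPM in the knockout, against 2.98, 33.6 and 0.908 CPM in WT replicates 1, 2 and 3. The 5 oligodendrocyte precursor markers summed to 1616 to 1734 CPM in the knockout, against 1863, 1070 and 2023 CPM in WT replicates 1, 2 and 3. The 7 neuron markers summed to 569 to 604 CPM in the knockout, against 474, 461 and 656 CPM in WT replicates 1, 2 and 3. Endothelial, fibroblast and erythroid markers each summed to at most 21.1 CPM in any library. Of 12 neural stem cell markers, 11 were read in all 6 libraries, with sums of 7708 to 9395 CPM in the knockout and 6293 to 8708 CPM in WT. The part of these differences in the results below was not tested, and in bulk libraries fewer cells of a type and less RNA per cell cannot be told apart. Pml itself had 14, 23 and 5 reads in the knockout libraries against 36, 35 and 44 in WT, without overlap (log2 fold change -2.81, SE 0.661, edgeR adjusted p 0.197).

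Ddit4 was higher in each knockout library than in each WT library, as were 12.3% of all tested genes, and it did not pass the main test. It was the one gene of the 10 whose groups did not overlap. It lies on chromosome 10 (59949669 to 59951834, minus strand, GRCm38) and encodes REDD1, an inhibitor of the growth kinase complex mTORC1, and is known to respond to hypoxia and glucocorticoids as well as to ATF4. It had 3025, 3404 and 3286 reads in knockout replicates 1, 2 and 3, against 900, 386 and 1138 in WT replicates 1, 2 and 3. Scaled to CPM these were 455, 561 and 490 in the knockout and 268, 309 and 258 in WT. The groups did not overlap, and WT replicate 2, which stood apart for most of the other genes, lay close to its group. The means were 502 ± 54.1 CPM in the knockout and 278 ± 26.7 CPM in WT (SD, n = 3 each), a ratio of 1.80.

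By the main test, edgeR's quasi-likelihood F test with Benjamini-Hochberg adjustment over all 11317 genes, Ddit4 had a log2 fold change of 0.85 (SE 0.249), an unadjusted p of 0.00626 and an adjusted p of 0.220, above the threshold of 0.05. The same gene passed with DESeq2 at an adjusted p of 0.0307, where 0.928% of all genes were called higher. It also passed with limma voom and library quality weights at 0.0191, where 4.26% were called higher. Without WT replicate 2, DESeq2 gave 0.0121, with 1.25% of all genes called higher, and edgeR gave 0.130. Over 19 alternative settings the log2 fold change of Ddit4 stayed between 0.77 and 1.33, and the adjusted p lay between 0.0121 and 0.714. The authors' deposited table gives Ddit4 a log2 fold change of 0.88 and an adjusted p of 0.103.

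None of the 10 genes passed the main test, 0 higher and 0 lower, where 0.00884% of all tested genes were called (1 gene, Wdfy1, higher in the knockout). DESeq2 called 1 of the 10, Ddit4, beside 2.9% of all genes; limma voom called 0, and 0% of all genes. At an unadjusted p under 0.05, 1 of the 10 was higher and 0 lower, against 6.7% and 9.19% of all genes. The CPM values of the groups did not overlap for Ddit4 alone, higher in the knockout, while 12.3% of all tested genes did not overlap in that direction and 11.3% in the other. Of the 10 log2 fold changes 3 were positive and 7 negative. Their median was -0.75, beside -0.01 for all tested genes. That median depended on 1 library and on the model. Without WT replicate 2 it was 0.42, with 7 positive and 3 negative, beside 0.01 for all genes. With all 6 libraries it was 0.061 with limma voom, -0.042 with voom and quality weights, and -0.26 with the replicate number as a block. It was -0.83 with DESeq2 and -0.80 with the edgeR exact test.

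**Figure D1:**
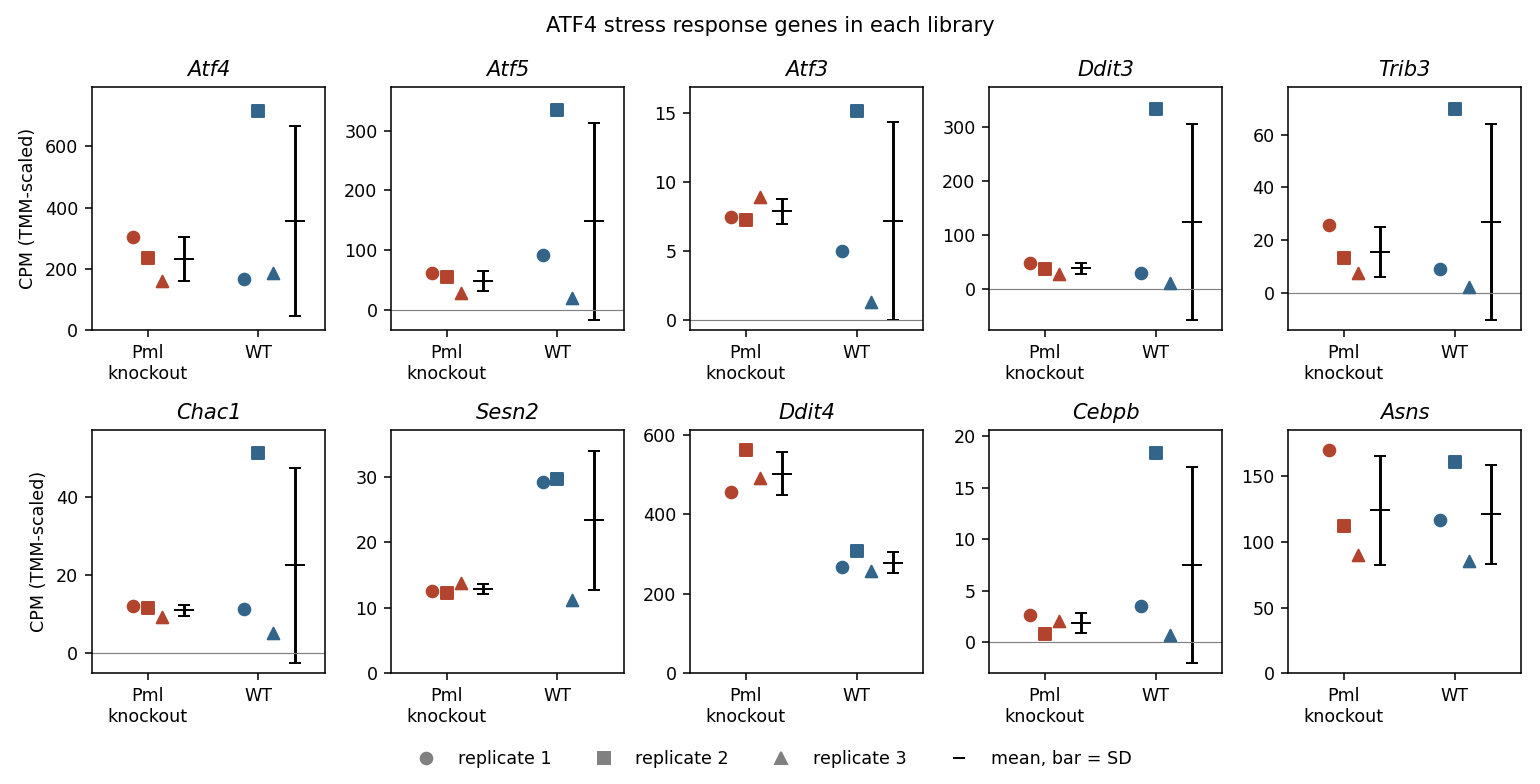
CPM of each gene (vertical axis, linear, one scale per panel) in the 3 Pml knockout libraries (red) and the 3 WT libraries (blue), with marker shapes for replicates 1, 2 and 3 and a black bar for mean and SD. For Ddit4 the knockout points (455 to 561 CPM) lie above all WT points (258 to 309 CPM), whereas for Atf4, Atf5, Ddit3, Trib3, Chac1 and Cebpb WT replicate 2 lies far above the other 5 libraries.

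Atf4, the factor that gives the response its name, lies on chromosome 15 (80255184 to 80257541, plus strand, GRCm38, ENSMUSG00000042406.8). It had 2014, 1420 and 1071 reads in the knockout libraries and 561, 894 and 819 in WT. In CPM these were 303, 234 and 160 in the knockout, against 167, 715 and 186 in WT replicates 1, 2 and 3. The knockout values lay in and just below the range of the WT values, and WT replicate 2 alone was above 303 CPM. The log2 fold change was -0.61 (SE 0.527) with an edgeR adjusted p of 0.586, and it turned to 0.41 (SE 0.285, adjusted p 0.491) without WT replicate 2.

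Atf5 (chromosome 7, 44812256 to 44816658, minus strand) encodes a close relative of ATF4 that is also translated more under stress and supports mitochondrial proteostasis. The knockout libraries had 61.1, 55.4 and 28.6 CPM, and the WT libraries 92.0, 334 and 19.1 CPM. The WT values thus spanned 17.5-fold and the knockout values 2.13-fold. The log2 fold change was -1.59 (SE 0.770), adjusted p 0.342 by edgeR. It was -0.17 without WT replicate 2 and -2.11 without WT replicate 3, where it passed (adjusted p 0.0246, with 7.97% of all genes called lower). Its exons overlap those of Nup62 and Il4i1 on the opposite strand, and the strand setting of the counting is not given, so reads of these genes cannot be told apart with certainty.

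Ddit3 (chromosome 10, 127290774 to 127296288, plus strand) encodes CHOP, a factor induced by ATF4 that promotes cell death in prolonged stress. It had 315, 221 and 185 reads in the knockout libraries and 95, 416 and 44 in WT, which is 47.4, 36.4 and 27.6 CPM in the knockout against 28.3, 333 and 9.99 CPM in WT. WT replicate 2 was the highest library and WT replicate 3 the lowest, with all knockout libraries between them. With all libraries the log2 fold change was -1.70 (SE 0.970, edgeR adjusted p 0.410). Without WT replicate 2 it was 0.99 (SE 0.405, adjusted p 0.252). Without both WT replicates 1 and 2, against the single WT replicate 3, it was 1.89 (SE 0.377) and passed at an adjusted p of 0.0215. In that fit 0.748% of all genes were called higher, and the lone WT library is assumed to vary like the others. Exons of Ddit3 overlap those of Mars, a tRNA synthetase gene on the opposite strand.

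Atf3 (chromosome 1, 191170296 to 191218039, minus strand), an early stress-induced transcription factor, had 50, 44 and 60 reads in the knockout libraries and 17, 19 and 6 in WT. Its knockout values were close together, at 7.52, 7.26 and 8.95 CPM, and its WT values were 5.06, 15.2 and 1.36 CPM. With all libraries the log2 fold change was 0.31 (SE 0.705, edgeR adjusted p 0.849). Without WT replicate 2 the groups no longer overlapped, and the value was 1.36 (SE 0.562, adjusted p 0.255); 17.7% of all tested genes were higher without overlap in that comparison.

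Cebpb (chromosome 2, 167688915 to 167690418, plus strand), a C/EBP factor that can pair with ATF4, had the fewest reads: 18, 5 and 14 in the knockout libraries and 12, 23 and 3 in WT. The 3 reads in WT replicate 3 amount to 0.762 CPM without scaling factors (exact 95% interval 0.157 to 2.23), and for the 23 in WT replicate 2 the interval was 8.21 to 19.4. The log2 fold change was -1.80 (SE 1.01, edgeR adjusted p 0.402), and -0.10 without WT replicate 2. Exons of Cebpb overlap those of Tmem189 on the opposite strand.

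Among the targets, Trib3 and Chac1 ranked the 6 libraries in the same order as Ddit3 did. Trib3 (chromosome 2, 152337422 to 152344032, minus strand), a pseudokinase that ATF4 and CHOP induce and that feeds back on ATF4, had 172, 81 and 50 reads in the knockout libraries and 31, 87 and 9 in WT. This is 25.9, 13.4 and 7.46 CPM in the knockout against 9.23, 69.5 and 2.04 CPM in WT. The exact 95% counting intervals, in CPM without scaling factors, were 39.3 to 60.5 in WT replicate 2 and 1.05 to 4.34 in WT replicate 3. The log2 fold change was -0.67 (SE 0.957, edgeR adjusted p 0.748) and 1.52 (SE 0.624, adjusted p 0.252) without WT replicate 2.

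Chac1 (chromosome 2, 119351229 to 119354381, plus strand) encodes an enzyme that degrades glutathione. Its knockout values were 11.9, 11.4 and 9.25 CPM, within 1.29-fold of each other, and its WT values 11.3, 51.2 and 4.99 CPM. WT replicate 1 stood within the knockout range, with WT replicate 2 above it and WT replicate 3 below. The log2 fold change was -0.95 (SE 0.697, edgeR adjusted p 0.517), and 0.44 without WT replicate 2.

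Asns (chromosome 6, 7675169 to 7693254, minus strand), asparagine synthetase and the textbook target of the amino acid arm, had nearly equal group means. It had 1132, 678 and 606 reads in the knockout libraries and 392, 201 and 378 in WT, or 170, 112 and 90.4 CPM in the knockout against 117, 161 and 85.8 CPM in WT. The means were 124 ± 41.4 CPM in the knockout and 121 ± 37.6 CPM in WT (SD, n = 3 each), with a log2 fold change of 0.04 (SE 0.329, edgeR adjusted p 0.958). WT replicate 2, at 715 CPM of Atf4, had 1.44 times the median Asns level of the other 5 libraries, against 3.84 times for Atf4.

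Sesn2 (chromosome 4, 132492032 to 132510501, minus strand) encodes a stress-induced leucine sensor that restrains mTORC1. The knockout libraries were tightly grouped at 12.5, 12.2 and 13.7 CPM, while WT replicates 1 and 2 had 29.2 and 29.6 CPM and WT replicate 3 had 11.1 CPM. Both WT libraries with the high Rn45s share were thus above the knockout and the remaining WT library below it. The log2 fold change was -0.84 (SE 0.412, edgeR adjusted p 0.348). It passed without WT replicate 3 (-1.18, SE 0.307, edgeR adjusted p 0.0353), where 7.97% of all genes were called lower. Without both WT replicates 1 and 2 it was 0.20. Ddit4 and Sesn2, both restraints on mTORC1, had fold changes of opposite sign with all libraries, and neither passed the main test.

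**Figure D2:**
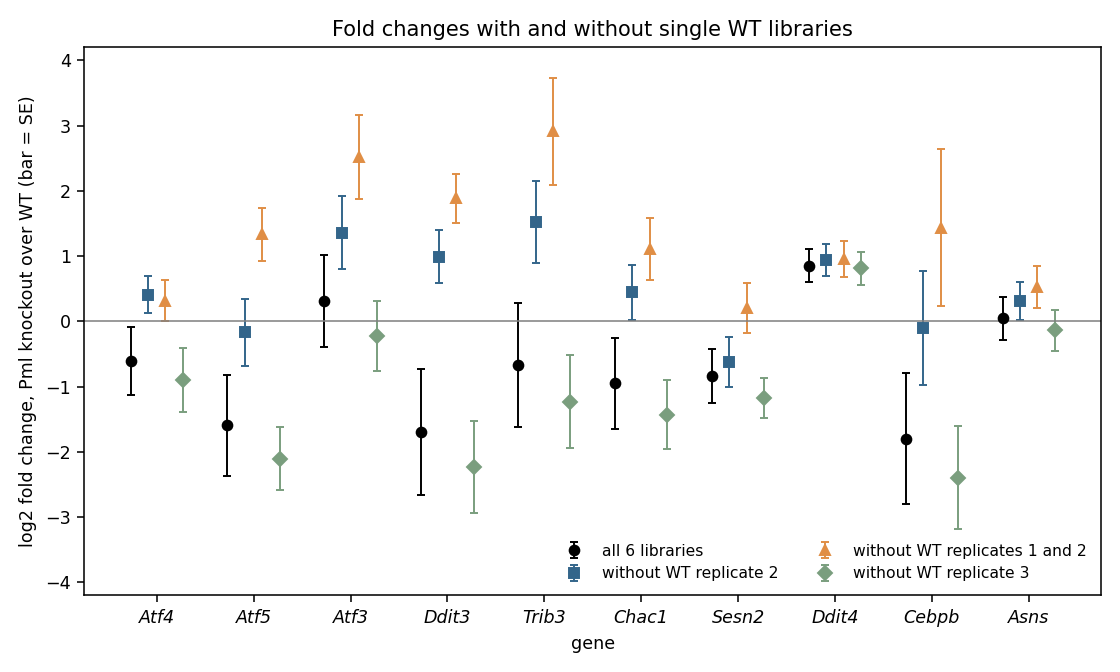
Log2 fold change of Pml knockout over WT with its SE (vertical axis) for each gene, with all 6 libraries (black circles), without WT replicate 2 (blue squares), without WT replicates 1 and 2 (orange triangles) and without WT replicate 3 (green diamonds). Ddit4 stays between 0.82 and 0.95 in these 4 fits, whereas Ddit3 runs from -2.23 to 1.89 and Trib3 from -1.23 to 2.91.

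The largest shared differences among the 10 genes lay within the WT group. WT replicate 2 was the highest of the 6 libraries for 8 of the 10, whereas 30.8% of all tested genes peaked there. That library was the lowest for 0 of the 10, against 35.2% of all tested genes. It was at least 3-fold above the median of the other 5 libraries for 6 of the 10, against 8.39% of all tested genes; these were Ddit3 at 11.8-fold, Cebpb at 8.80-fold, Trib3 at 7.54-fold, Atf5 at 6.03-fold, Chac1 at 4.52-fold and Atf4 at 3.84-fold. For Ddit3, 0.389% of all tested genes stood out as far or farther in that library. WT replicate 3 was the lowest library for 9 of the 10, against 16.8% of all tested genes, with Atf4 as the exception. Relative to each gene's mean, the 10 genes averaged 0.21, -0.15 and -0.35 (log2) in the knockout libraries, against -0.07, 1.62 and -1.27 in WT replicates 1, 2 and 3. In this average the knockout libraries thus lay between the WT extremes and close to WT replicate 1. Single genes departed from it. In all knockout libraries Ddit4 and Atf3 were above WT replicate 1, and Sesn2, Atf5 and Cebpb were below it.

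**Figure D3:**
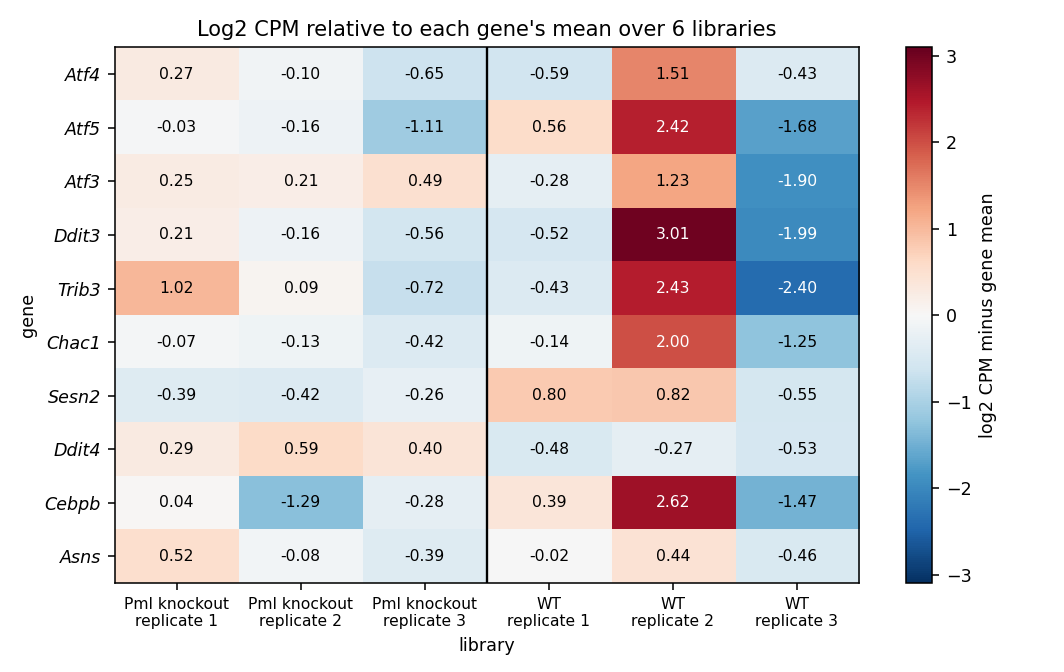
Log2 CPM of each gene (rows) minus its mean over 6 libraries, in each library (columns, Pml knockout left of WT); red is above the gene's mean and blue below. WT replicate 2 is red for all genes but Ddit4 (-0.27), reaching 3.01 for Ddit3, and WT replicate 3 is blue for all 10, down to -2.40 for Trib3.

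Read ratios within a library do not depend on scaling between libraries. Per 100 reads of Atf4 there were 15.6, 15.6 and 17.3 reads of Ddit3 in the knockout libraries, against 16.9, 46.5 and 5.37 in WT replicates 1, 2 and 3. The ratio was nearly constant in the knockout libraries and WT replicate 1, and the other two WT libraries departed from it in opposite directions. Atf5 had 20.2, 23.7 and 17.9 reads per 100 of Atf4 in the knockout and 55.1, 46.8 and 10.3 in WT. Trib3 had 8.54, 5.70 and 4.67 in the knockout and 5.53, 9.73 and 1.10 in WT. Asns went the other way in WT replicate 2, with 56.2, 47.7 and 56.6 in the knockout against 69.9, 22.5 and 46.2 in WT. Relative to the median of the other 5 libraries, WT replicate 2 stood out more for Ddit3, Cebpb, Trib3, Atf5 and Chac1 than for Atf4, and less for Sesn2 (2.37-fold), Atf3 (2.09-fold), Asns (1.44-fold) and Ddit4 (0.678-fold), so that factors and targets lay on both sides.

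Likeness to the mean profile of the 10 genes was measured as the root mean square distance of log2 CPM over the 6 libraries, after centring each gene. Chac1 was the closest of the 10, at 0.196, and Ddit4 the farthest, at 0.949, near the median of 0.964 over the other 11307 tested genes. The closest genes outside the set were Kcnn1, a calcium-activated potassium channel (0.101), Uaca, a coiled-coil protein (0.144), Trappc6a, a vesicle tethering subunit (0.153), the glycolytic enzyme Pgam1 (0.158) and Pdlim4, a PDZ and LIM domain protein (0.178). Kcnn1 rests on 13, 11 and 9 reads in the knockout and 5, 8 and 2 in WT. Pgam1 had 98.7, 74.0 and 66.1 CPM in the knockout and 72.6, 299 and 43.8 CPM in WT, so it too was highest in WT replicate 2 and lowest in WT replicate 3.

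The wider pathway was read from 9 lists, in which 119 genes outside the set were tested; levels are given as mean ± SD over 3 libraries per genotype. By edgeR 0 of the 119 passed, 21 had an unadjusted p under 0.05, beside 15.9% of all genes, and the groups did not overlap for 18 higher and 11 lower, beside 12.3% and 11.3% of all genes. DESeq2 called 6 of the 119, beside 2.9% of all genes, and the edgeR exact test 3, beside 3.16%. With WT replicate 2 left out, DESeq2 called 7, all higher, beside 1.25% of all genes called higher. Aldh18a1 and Vldlr were called in both DESeq2 fits, and Slc3a2, Eif2b4, Eif2b5 and Calr only with all libraries. Aldh1l2, Cebpg, Fosl2, Maf and Vegfa were called by DESeq2 only with WT replicate 2 left out. Where counts without overlap are given below without WT replicate 2, the shares of all genes were 17.7% higher and 17.2% lower. Upstream of ATF4, 16 genes of eIF2, its kinases, its exchange factor eIF2B and its phosphatases had a median log2 fold change of -0.05, with 1 higher and 3 lower without overlap (3 and 5 without WT replicate 2). The 3 lower with all libraries were subunits of eIF2B, the exchange factor that phosphorylated eIF2 blocks. Among the other eIF2B subunits, Eif2b3 had a log2 fold change of -0.59 and Eif2b1 went the other way at 0.42. Without WT replicate 2 these were -0.73 for Eif2b3 and 0.09 for Eif2b1. Eif2b4 had 44.4 ± 2.12 CPM in the knockout and 86.2 ± 17.5 CPM in WT (log2 fold change -0.95, SE 0.263, edgeR adjusted p 0.212). Eif2b5 had 50.6 ± 12.5 CPM in the knockout and 128 ± 60.7 CPM in WT (-1.32, SE 0.370, adjusted p 0.212). Eif2b2 had 49.4 ± 1.36 CPM in the knockout and 95.2 ± 36.9 CPM in WT (-0.93, SE 0.310, adjusted p 0.238). Eif2b4 and Eif2b5 passed with DESeq2 on all libraries. Without WT replicate 2 the 3 values were -0.77, -0.88 and -0.58 for Eif2b4, Eif2b5 and Eif2b2, and none passed by edgeR or DESeq2.

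The mitochondrial relay list had 9 tested genes, a median of -0.42 (-0.25 without WT replicate 2), and 1 higher and 2 lower without overlap. Besides Oma1 and Dele1 it held mitochondrial chaperones and proteases and the secreted target Gdf15. Oma1 had a log2 fold change of -0.54 and Dele1, listed as 0610009O20Rik, -0.44. Without WT replicate 2 these were -0.25 for Oma1 and -0.17 for Dele1. Clpp, a matrix protease, had 52.1 ± 6.99 CPM in the knockout and 81.7 ± 12.8 CPM in WT, and Lonp1, the other main matrix protease, 77.3 ± 7.48 CPM in the knockout and 46.1 ± 21.9 CPM in WT. Gdf15, a secreted stress hormone induced by ATF4 and CHOP, had 82, 49 and 52 reads in the knockout and 73, 113 and 10 in WT. In reads as in scaled level, Gdf15 was highest in WT replicate 2. By edgeR none of these 3 passed, at adjusted p-values of 0.279 for Clpp, 0.361 for Lonp1 and 0.328 for Gdf15. The log2 fold changes with all libraries were 0.72 for Lonp1 and -1.94 for Gdf15, and without WT replicate 2 they were 0.42 for Lonp1 and -0.30 for Gdf15.

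Among 13 tested partners of ATF4, ATF3 and CHOP the median was -0.27 with all libraries and 0.46 without WT replicate 2, and 3 were higher without overlap (6 without WT replicate 2). WT replicate 2 was the highest library for 10 of the 13. Cebpg, a C/EBP protein that binds DNA with ATF4, was higher in each knockout library: 601, 439 and 387 reads against 114, 61 and 166 in WT, or 73.5 ± 16.4 CPM in the knockout against 40.1 ± 7.71 CPM in WT. Its log2 fold change was 0.89 (SE 0.291, edgeR adjusted p 0.238), and 1.05 without WT replicate 2. Maf, a large bZIP factor, had 33.5 ± 11.8 CPM in the knockout and 11.7 ± 5.79 CPM in WT (1.54, SE 0.468, adjusted p 0.223). Jund had 35.4 ± 0.982 CPM in the knockout and 114 ± 101 CPM in WT (-1.67, SE 0.639, adjusted p 0.256), with overlap, and its log2 fold change was -0.75 without WT replicate 2. Of 17 tested paralogs of the 10 genes, 3 were higher and 2 lower without overlap, with a median of 0.31. The paralogs share Cebpa, Cebpd and Cebpg with the partners. Trib1, a pseudokinase related to Trib3, had 98.2 ± 9.48 CPM in the knockout and 145 ± 39.6 CPM in WT, and Atf2, a stress-kinase target, 46.9 ± 6.80 CPM in the knockout and 24.3 ± 16.0 CPM in WT. The groups overlapped for both, with log2 fold changes of -0.56 for Trib1 (edgeR adjusted p 0.351) and 0.90 for Atf2 (adjusted p 0.344); without WT replicate 2 these were -0.33 for Trib1 and 0.56 for Atf2.

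Downstream, the amino acid transporters had the highest median of the 9 lists with all libraries, 0.49 over 9 tested genes (without WT replicate 2, 0.54 and second to the growth arrest list at 0.62), with 8 positive, 1 negative and 3 higher without overlap. Slc3a2, the shared heavy chain of several amino acid exchangers, had 2783, 2433 and 2146 reads in the knockout and 841, 213 and 860 in WT. That is 380 ± 52.6 CPM in the knockout against 205 ± 41.0 CPM in WT (log2 fold change 0.89, SE 0.266, edgeR adjusted p 0.220). Slc3a2 passed with DESeq2, but not with DESeq2 without WT replicate 2. Slc7a11, the cystine importer, had 22.4 ± 3.08 CPM in the knockout and 14.9 ± 2.35 CPM in WT (0.61, SE 0.319, adjusted p 0.376). Slc7a3, an arginine transporter, had 121, 57 and 41 reads in the knockout and 18, 1 and 11 in WT, or 11.2 ± 6.25 CPM in the knockout and 2.88 ± 2.30 CPM in WT (1.82, SE 0.636, adjusted p 0.240). All 3 were higher in each knockout library than in each WT library, and without WT replicate 2 their log2 fold changes were 0.78 for Slc3a2, 0.73 for Slc7a11 and 1.55 for Slc7a3.

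Amino acid synthesis genes had a median of -0.03 over 14 tested (0.0094 without WT replicate 2), with 2 higher and 1 lower without overlap (3 and 2 without WT replicate 2). Aldh18a1, which makes the proline precursor, had 274, 190 and 222 reads in the knockout and 57, 7 and 58 in WT, or 35.2 ± 5.27 CPM in the knockout against 11.9 ± 5.79 CPM in WT. Its log2 fold change was 1.50 (SE 0.387, edgeR adjusted p 0.208), and it passed with DESeq2 and the edgeR exact test. Psph, the last enzyme of serine synthesis, had 40.8 ± 6.07 CPM in the knockout and 21.1 ± 5.14 CPM in WT (0.93, SE 0.308, adjusted p 0.238). Aldh1l2, a mitochondrial folate enzyme, had 48.6 ± 16.7 CPM in the knockout and 25.6 ± 13.7 CPM in WT, with overlap (log2 fold change 0.97, and 1.45 without WT replicate 2). The 13 tRNA charging and export genes had a median of -0.24, with 2 higher and 1 lower without overlap. Xpot, the tRNA exportin, and Iars, the isoleucine enzyme, were the 2 higher. Xpot had 78.6 ± 6.46 CPM in the knockout and 42.3 ± 17.2 CPM in WT, and Iars 71.7 ± 12.8 CPM in the knockout and 46.6 ± 6.58 CPM in WT. Sars, the serine enzyme, had 203 ± 65.7 CPM in the knockout and 430 ± 277 CPM in WT, with overlap (log2 fold change -1.08, adjusted p 0.314, and -0.51 without WT replicate 2).

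The growth arrest and secreted outputs had a median of 0.25 over 15 tested genes, with 3 higher and 0 lower without overlap. Without WT replicate 2 the median was 0.62, with 7 higher and 0 lower. Vldlr, a lipoprotein and reelin receptor that ATF4 can induce, had 157 ± 35.2 CPM in the knockout and 60.0 ± 3.30 CPM in WT (log2 fold change 1.39, SE 0.268, edgeR adjusted p 0.197; it passed with DESeq2). Vegfa, the endothelial growth factor induced by hypoxia and by ATF4, had 2578, 3318 and 1761 reads in the knockout and 488, 333 and 295 in WT. Its CPM values overlapped, since the lowest knockout library had 263 CPM and WT replicate 2 had 266 CPM. Vegfa averaged 399 ± 143 CPM in the knockout and 159 ± 100 CPM in WT (1.34, SE 0.468, adjusted p 0.240), and its log2 fold change was 1.93 without WT replicate 2. Atg12, an autophagy conjugation gene, had 57.7 ± 14.3 CPM in the knockout and 35.6 ± 1.56 CPM in WT (0.69, SE 0.291, adjusted p 0.289).

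The unfolded protein response outside ATF4 had a median of 0.21 over 17 tested genes (0.14 without WT replicate 2), with 1 higher and 2 lower without overlap (3 and 3 without WT replicate 2). Calr, a calcium-binding chaperone of the endoplasmic reticulum, had 595 ± 135 CPM in the knockout and 1920 ± 1446 CPM in WT, with overlap. Its log2 fold change was -1.69 (SE 0.526, edgeR adjusted p 0.228). Calr passed with DESeq2, but not with DESeq2 without WT replicate 2. Pdia4, a disulfide isomerase, had 62.8 ± 1.45 CPM in the knockout and 139 ± 70.7 CPM in WT (-1.14, SE 0.349, adjusted p 0.225). Without WT replicate 2 the log2 fold changes were -0.91 for Calr and -0.64 for Pdia4. Dnajb9, a cochaperone induced through XBP1, had 69, 55 and 100 reads in the knockout and 23, 5 and 12 in WT, or 11.5 ± 3.07 CPM in the knockout and 4.52 ± 2.11 CPM in WT (1.33, SE 0.490, adjusted p 0.245). Genes of this arm thus lay on both sides. In WT replicate 2, where the 10 genes averaged 1.62 (log2) above their means, the bZIP partners averaged 0.99 and the other 8 lists between -0.38 and 0.37.

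**Figure D4:**
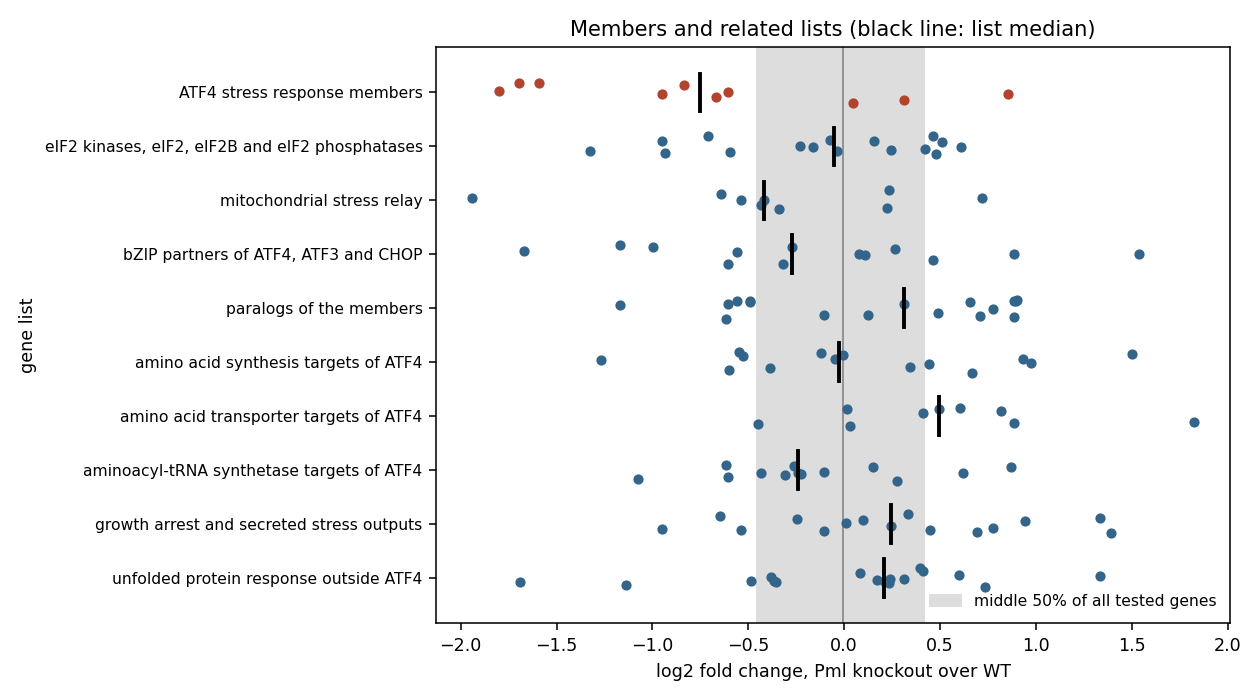
Log2 fold change of Pml knockout over WT (horizontal axis) for the 10 genes (red, top) and the tested genes of 9 related lists (blue), with a black line at each median and grey for the middle 50% of all tested genes (-0.45 to 0.42). With all libraries the median of the 10 genes, -0.75, is the lowest, and that of the amino acid transporters, 0.49, the highest; without WT replicate 2 they were 0.42 and 0.54.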

How the data were processed

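RNA from 6 samples was made into 3′ tag libraries (QuantSeq forward) and sequenced, per the labels' protocols; reads per gene therefore do not scale with transcript length. FastQC, HISAT2, HTSeq and edgeR were named for the upstream steps, with the mm10 build, per the submitters' processing notes. Tool versions, annotation and strandedness were not given in the sources used here. One deposited table holds whole-number counts per gene symbol, not normalized. It also holds the authors' scaled counts (a score rounded to whole numbers, not used here), fold and log2 fold changes and p-values, per the file headers. P-values of the authors were deposited for 12349 genes, of which 363 have an adjusted p under 0.05, and 0 of the 10 genes studied here. Columns were matched to samples by library name.

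The counts went through edgeR 4.0.16 in R 4.3.3: the default filter (count minimum 10, total 15), trimmed mean of M values factors, and a robust quasi-likelihood F test for the genotype without covariates, adjusted over all genes tested. The SE is the log2 fold change divided by the square root of F. DESeq2 1.42.0, limma 3.58.1 (voom), other factors and filters, a replicate block, removal of Rn45s and removal of each library were alternatives; 1 combination, DESeq2 without WT replicate 2, was added after the data were seen. The main test was also run on simulated counts, whose expected levels differed only by library size and, for 200 genes, by genotype. Those counts held no outlying library such as WT replicate 2, so they cannot show how the test behaves with one. The genes, the 9 pathway lists and the marker lists were chosen with earlier results of these data known. Named genes were all 10 genes, Pml, any gene past the threshold, up to 3 genes per list with the smallest p, and the 5 genes nearest in profile. Gene coordinates are from GENCODE M21 (GRCm38, the assembly that mm10 names) and promoters from RefSeq GRCm38.p6. Exact (Clopper-Pearson) 95% intervals cover counting error only. An exact permutation test of 3 against 3 cannot go below 0.1.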

Additional observations from a re-analysis of the deposited data

How the results depend on the processing

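The count of genes called, 1 with all libraries, was 0 with RLE size factors, library totals, a minimum of 5 CPM, limma voom and without Rn45s. It was 3 with no count filter, 328 with DESeq2, 1242 with voom and quality weights, and 358 with the edgeR exact test. Without WT replicates 1 and 2 it was 142, and with DESeq2 without WT replicate 2 it was 274. With single libraries left out it ran from 0 to 1526, the highest without WT replicate 3. Of the 10 genes, 0 were called in the main test. The count was 1 (Ddit4) with DESeq2, with voom and quality weights and with DESeq2 without WT replicate 2, 1 (Ddit3) without WT replicates 1 and 2, and 0 to 2 with single libraries left out (Atf5 and Sesn2 without WT replicate 3). Of the 119 pathway genes, 6 were called with DESeq2, beside 2.9% of all genes, and 3 with the exact test, beside 3.16%. With voom and quality weights 19 were called, beside 1242 of all 11317 genes. DESeq2 without WT replicate 2 called 7, all higher, beside 1.25% of all genes called higher. With single libraries left out 0 to 17 were called. The most were called without WT replicate 3, where 1526 of all 11756 genes were called.

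The median log2 fold change of the 10 genes, -0.75, was 1.22 without WT replicates 1 and 2, 0.40 with DESeq2 without WT replicate 2, 0.061 with voom, -0.042 with voom and quality weights, -0.26 with the replicate block, and -1.21 to 0.42 with single libraries left out. Library totals moved the median of all genes to 0.43 and that of the 10 genes to -0.16.

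Deviations of same-numbered libraries correlated at -0.0025, 0.067 and 0.188, and those of differently numbered libraries at -0.181 to 0.087. With 3 libraries per group these values cannot show whether the samples were paired, and the labels state no pairing. With the replicate number as a block 2 genes were called in place of 1, Trib3 turned to 0.30, and Ddit3 was -0.20, against -1.70 without the block.

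Signs turned for single genes. With voom, Chac1 was 0.051, Ddit3 0.14 and Trib3 1.01; with quality weights, Ddit3 was 0.17, Trib3 0.52 and Asns -0.060. Without WT replicates 1 and 2, Atf4 was 0.32, Atf5 1.34, Cebpb 1.44, Chac1 1.11, Ddit3 1.89, Sesn2 0.20 and Trib3 2.91, while Atf3 (2.52) and Asns (0.53) were positive as with all libraries. With DESeq2 without WT replicate 2, Atf4 was 0.39, Chac1 0.42, Ddit3 0.96 and Trib3 1.49. With single libraries left out, the ranges were -0.92 to 0.41 for Atf4, -1.43 to 0.44 for Chac1, -2.23 to 0.99 for Ddit3, -1.25 to 1.52 for Trib3, -0.22 to 1.36 for Atf3 and -0.24 to 0.31 for Asns; Atf5 (-2.11 to -0.17), Cebpb (-2.40 to -0.10) and Sesn2 (-1.18 to -0.59) kept their sign. Apart from the libraries left out, the cause of these changes was not tested. Depth limits Cebpb, Atf3 and Trib3 most, with 3, 6 and 9 reads in WT replicate 3.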
